A study of Mus musculus with 4 samples.

Results

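The 10 genes described here are transcripts by which macrophages and monocytes are usually recognised. They were Lyz2, Cd68, Csf1r, C1qa, C1qb, C1qc, Mertk, Fcgr1, Fcgr3 and Cd14, chosen by name among the 23366 gene symbols of a table of read counts. All 10 were found in it. The RNA came from medullary thymic epithelial cells (mTECs), which express self-antigens of many tissues under the control of Aire, and the study compared mTECs of male and female mice. Every mouse was wild-type, of the C57BL/6 strain and 6 to 8 weeks old, and cells of 10 mice made up each of 2 female and 2 male pools. Cells were sorted as negative for propidium iodide and for the leukocyte protein CD45, positive for MHCII and low in Ly51, so the macrophage transcripts were measured in a gate meant to be free of blood cells. Pooling leaves no value for a single mouse, and p-values here measure the spread between pools.

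Macrophages and monocytes are phagocytes, and in the thymus they clear the many thymocytes that die during selection. Csf1r is the receptor for the growth factors on which most macrophages depend. C1qa, C1qb and C1qc encode the chains of C1q, the recognition unit of the classical complement pathway, which assemble in equal numbers and are made mainly by macrophages. Mertk is a receptor kinase for the uptake of dying cells, Fcgr1 and Fcgr3 encode activating receptors for IgG, and Cd14 encodes a co-receptor for bacterial lipopolysaccharide (LPS). Lyz2 encodes the antibacterial enzyme lysozyme, and Cd68 encodes a glycoprotein of endosomes and lysosomes.

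The 3 C1q genes lie side by side on chromosome 4 of NCBIM37, the assembly also called mm9, all on the minus strand. C1qb runs from 136436044 to 136442102, C1qc from 136445719 to 136448980 and C1qa from 136451832 to 136454718, with 3616 bp between C1qb and C1qc and 2851 bp between C1qc and C1qa. The cluster spans 18675 bp, and each gene has 3 exonic blocks. Fcgr3 lies on chromosome 1 (172981300 to 172995066, minus strand, 7 exonic blocks) and Mertk on chromosome 2 (128524692 to 128628630, plus strand, 19 exonic blocks). Promoters of these genes are printed because the C1q genes and Fcgr3 had the largest differences between pools among the 10 genes, and Mertk one of the smallest. They are RefSeq sequences of GRCm38.p6, a later build than that of the counts, from 250 bases before the start of transcription to 50 after it, on the strand of the gene. RefSeq entries were matched for 7 of the 10 genes, and Fcgr3 has 2, of which 1 is shown. Capitals mark matches on either strand to GAGGAA (the core bound by PU.1, a transcription factor of myeloid and B cells), TGCTGAC (one arm of a MAF site) and TTGCNNAA (C/EBP). A joint PU.1 and IRF site, which shares GGAA with the first motif, was searched too. The C1qb window is chr4:136886151-136886450, the C1qc window chr4:136892865-136893164, the Fcgr3 window chr1:171059354-171059653 (all minus strand) and the Mertk window chr2:128698665-128698964 (plus strand).
C1qb: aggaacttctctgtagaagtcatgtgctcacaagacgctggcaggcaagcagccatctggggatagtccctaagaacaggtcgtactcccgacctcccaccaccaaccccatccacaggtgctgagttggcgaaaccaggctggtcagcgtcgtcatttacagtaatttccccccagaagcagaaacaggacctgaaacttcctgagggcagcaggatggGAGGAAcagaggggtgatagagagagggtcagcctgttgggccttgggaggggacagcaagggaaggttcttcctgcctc
C1qc: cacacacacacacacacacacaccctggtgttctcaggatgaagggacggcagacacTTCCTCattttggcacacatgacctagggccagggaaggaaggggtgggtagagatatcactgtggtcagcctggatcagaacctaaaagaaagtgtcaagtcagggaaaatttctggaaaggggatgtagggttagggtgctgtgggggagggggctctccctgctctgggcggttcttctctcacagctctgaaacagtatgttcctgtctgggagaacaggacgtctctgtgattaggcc
Fcgr3: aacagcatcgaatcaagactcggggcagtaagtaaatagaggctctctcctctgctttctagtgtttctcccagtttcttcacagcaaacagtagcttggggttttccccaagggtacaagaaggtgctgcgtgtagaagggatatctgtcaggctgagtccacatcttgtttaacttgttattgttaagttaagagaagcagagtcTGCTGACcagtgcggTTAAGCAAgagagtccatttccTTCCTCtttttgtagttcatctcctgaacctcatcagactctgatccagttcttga
Mertk: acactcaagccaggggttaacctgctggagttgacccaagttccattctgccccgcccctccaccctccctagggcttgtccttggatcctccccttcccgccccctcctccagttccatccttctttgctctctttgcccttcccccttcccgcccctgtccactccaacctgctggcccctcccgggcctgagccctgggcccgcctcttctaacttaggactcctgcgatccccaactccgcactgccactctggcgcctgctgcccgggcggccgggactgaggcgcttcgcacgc

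The C1qb window held GAGGAA at position -30 from the start site, and the C1qc window held its complement at -193. In Fcgr3 the matches were TGCTGAC at -43, a C/EBP match at -28 and the complement of GAGGAA at -6. The Mertk window held none of the 4 motifs, and neither did that of Lyz2, which is not printed. Over the 7 promoters, GAGGAA was found in 5 (C1qb, C1qc, Fcgr1, Fcgr3 and Cd68), the C/EBP motif in 2 (Fcgr3 and Cd68), and the MAF motif and the joint site in 1 each. Among all 32851 promoters of the table the shares were 28.3% for GAGGAA, 4.67% for TGCTGAC, 10.8% for TTGCNNAA and 2.72% for the joint site. These matches describe letters in a window and not bound sites. The other genes lie apart from each other and from the C1q cluster, except that 2 share a chromosome. Lyz2 is on chromosome 10 (116714390 to 116719377, minus strand), Cd68 on chromosome 11 (69477715 to 69479655, minus strand) and Fcgr1 on chromosome 3 (96086832 to 96098179, minus strand). Csf1r (61265226 to 61291803, plus strand) and Cd14 (36884728 to 36886390, minus strand) are both on chromosome 18 of NCBIM37.

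Between 1976272 and 7103627 reads per pool were counted on genes. Levels are given as normalized CPM, that is, counts scaled to the library total and then corrected for library composition by the TMM method. All 10 genes passed edgeR's filter on low counts, as did 10865 genes in all, and the lowest count of any of the 10 in a pool was 7. The upper limit for a gene with no count is 3 counts, or 0.358 to 1.48 normalized CPM depending on the pool. Male pool 2 stood apart from the other libraries. Its chi-square per degree of freedom over genes was 67.4 against female pool 1, 26.2 against female pool 2 and 99.6 against male pool 1, compared with 11.03 to 20.6 between the other 3 pools, and its TMM factor was 0.780 against 1.03 to 1.18. The chi-square was computed on raw counts and grows with read depth, so its size does not measure difference alone. Together the 10 genes took 0.235% and 0.492% of the reads in female pools 1 and 2, and 0.188% and 0.506% in male pools 1 and 2. Lyz2 made up 49.8% to 52.8% of these reads in every pool. In bulk RNA, fewer cells holding these transcripts and less of them per cell cannot be told apart. Which cells held them was not tested.

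Per kilobase of exon, the most abundant of the 10 transcripts was Lyz2, with 1471 ± 874 normalized CPM per kilobase (SD, n = 4 pools). C1qb followed with 618 ± 439, C1qa with 319 ± 224, C1qc with 208 ± 148 and Cd68 with 156 ± 61.0. Cd14 had 78.4 ± 10.7 on the same scale, Csf1r 16.9 ± 6.51, Fcgr3 16.7 ± 10.6, Fcgr1 4.28 ± 2.25 and Mertk 0.721 ± 0.165. Each gene lay above the next one down in all 4 pools, except that C1qc was above Cd68 in 2 pools and Csf1r above Fcgr3 in 3. The ranges of neighbours overlapped except between Cd68 and Cd14, Cd14 and Csf1r, and Fcgr1 and Mertk. With the length of the longest protein-coding transcript in place of all exonic bases, a setting chosen after the values were seen, C1qc stood at 334, above C1qa at 319, and Fcgr3 at 21.6, above Csf1r at 18.8.

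**Figure D1:**
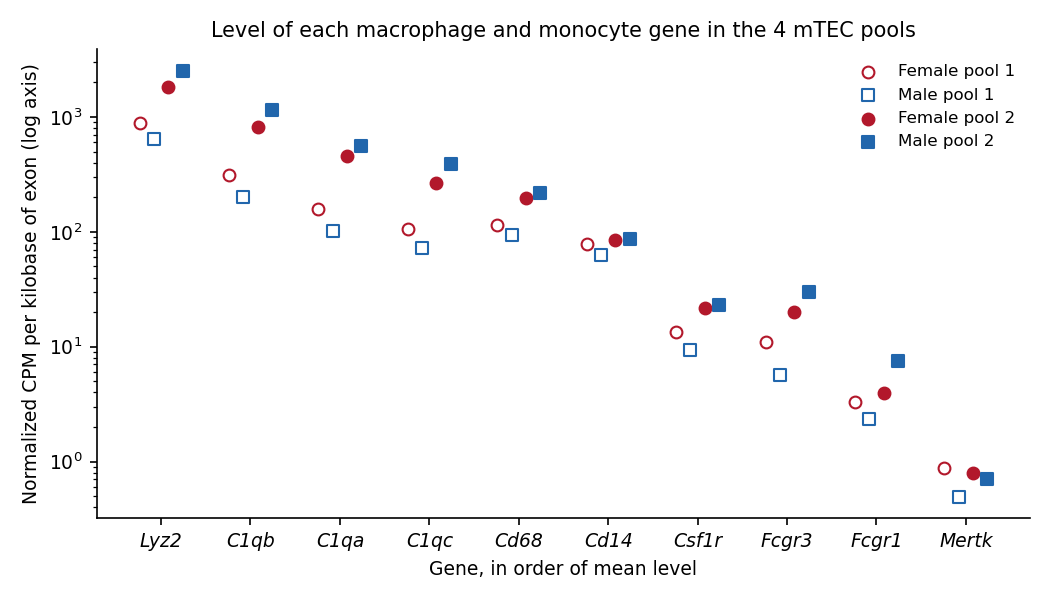
Normalized CPM per kilobase of exon (log axis) of each gene in each mTEC pool, with open symbols for pools numbered 1, filled symbols for pools numbered 2, circles for females and squares for males. For every gene except Mertk both filled symbols lie above both open ones, and the levels run from 0.496 for Mertk in male pool 1 to 2534 for Lyz2 in male pool 2.

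The first comparison asked whether these transcripts differed between male and female mTECs. No difference passed the test for any of them, and each fitted difference was smaller than its standard error. The mean of Lyz2 was 1779 ± 874 normalized CPM over the 2 female pools (SD, n = 2) and 2084 ± 1758 over the 2 male pools (SD, n = 2). Male over female, its log2 fold change was 0.23 (standard error 0.74). C1qb averaged 614 ± 386 in the female pools against 731 ± 723 in the male ones, and its log2 fold change was 0.25 (standard error 0.85). For the others it was 0.11 for C1qa, 0.33 for C1qc, 0.01 for Cd68, 0.16 for Fcgr3 and 0.38 for Fcgr1. It was -0.13 for Csf1r, -0.12 for Cd14 (standard error 0.35) and -0.53 for Mertk (standard error 0.59). In edgeR's quasi-likelihood test, with p adjusted over all genes by the method of Benjamini and Hochberg, 0 of the 10 passed an adjusted p of 0.05 (adjusted p = 1 for each), against 0% of the 10865 genes tested. At an unadjusted p under 0.05 the count was also 0 of 10, against 0.442% of all genes. DESeq2 and edgeR's exact test called 0 of the 10 as well. The paper listed genes higher in males at a false discovery rate under 0.05, among them genes of the Y chromosome. The quasi-likelihood fit called none of these, so 0 of the 10 does not show a lack of difference. Over the 10 genes the log2 fold change had a median of 0.13, against 0.03 for all genes tested. Both male pools lay on the same side of both female pools for 1 of the 10, Mertk, as for 21.2% of all genes. Without male pool 2 the median of the 10 genes was -0.98, and it was -0.25 in the fit that left out female pool 1 and 0.88 in that without male pool 1.

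The male pools were the outermost ones. In pools numbered 1 all 10 genes were lower in the male than in the female pool, and in pools numbered 2 9 of the 10 were higher in the male pool, all but Mertk. Being lower in the male pool 1 and higher in the male pool 2 was seen for 27.1% of all genes tested. For C1qb the log2 difference of male minus female was -0.63 in pools numbered 1 and 0.49 in pools numbered 2. For Fcgr3 it was -0.96 and 0.57. Without composition normalization 5 of the 10 genes showed this pattern, Lyz2, C1qb, C1qc, Fcgr1 and Fcgr3, against 10.8% of all genes on that scale.

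The titles number the pools of each sex 1 and 2, and the second comparison set both pools numbered 2 against both pools numbered 1. It uses the same 4 libraries as the first, and the sources used here do not say what the numbers mean. The comparison was made because earlier results of these data had shown differences by pool number. Its p-values therefore describe a difference already seen and are not an independent test. The 3 C1q genes were higher in pools numbered 2. C1qa had 164 and 475 normalized CPM in female pools 1 and 2, and 107 and 584 in male pools 1 and 2. This was a log2 fold change of 1.97 (standard error 0.33; adjusted p = 0.0391 by edgeR's quasi-likelihood test). C1qb had 341, 887, 220 and 1242 normalized CPM in the same pools, a log2 fold change of 1.93 (standard error 0.37; adjusted p = 0.0451). C1qc had 203, 510, 139 and 755, with a log2 fold change of 1.89 (standard error 0.35; adjusted p = 0.0443). All 3 were lowest in male pool 1 and highest in male pool 2. Pool 2 exceeded pool 1 by 2.52-fold to 2.90-fold among females and by 5.42-fold to 5.65-fold among males. These 3 were the only ones of the 10 past the threshold, against 1.86% of all genes called higher in pool 2 and 0.175% called lower. Without male pool 1, 0 of the 10 passed, against 1.43% of all genes called higher in that fit, and the log2 fold changes were 1.68 for C1qa, 1.63 for C1qb and 1.63 for C1qc. Without female pool 1, 2 of the 10 passed (C1qa and Fcgr3), against 2.67% of all genes, and C1qb and C1qc did not. Without male pool 2, the library that stood apart, 5 passed (the C1q genes, Lyz2 and Cd68), against 1.804% of all genes, with log2 fold changes of 1.82 for C1qa, 1.66 for C1qb and 1.58 for C1qc. Without female pool 2, 8 passed (all but Cd14 and Mertk), in a fit that called 14.8% of all genes higher. With DESeq2's size factors in edgeR, C1qb did not pass.

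The other genes of the set had smaller fitted changes with pool number, and none passed the threshold in the fit with pool number alone. With sex as a second term Fcgr3 (adjusted p = 0.00454) and Csf1r (adjusted p = 0.0466) passed as well, by the same edgeR test, against 5.96% of all genes called higher in that fit. Lyz2 had 1161 and 2397 normalized CPM in female pools 1 and 2, and 841 and 3327 in male pools 1 and 2. Its log2 fold change was 1.52 (standard error 0.40), short of the threshold (adjusted p = 0.072 by edgeR's quasi-likelihood test). Lyz1, the neighbouring lysozyme gene, shares 15.4% of the 50-base stretches of Lyz2, which is the length of a read. Reads from those stretches do not tell the pair apart, and how they were counted is not stated. Cd68 had 144, 246, 118 and 276 normalized CPM in the same order of pools, a log2 fold change of 0.995 (standard error 0.26; adjusted p = 0.0714). Csf1r had 70.7, 114, 49.2 and 120, a log2 fold change of 0.97 (standard error 0.26; adjusted p = 0.0727). Of the 50-base stretches of Csf1r, 15.7% are shared with Hmgxb3, which overlaps it on the opposite strand, and whether reads were counted by strand is not stated, so its value is uncertain to that extent.

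Of the IgG receptors, Fcgr3 had 19.3 and 35.1 normalized CPM in female pools 1 and 2, and 9.92 and 52.0 in male pools 1 and 2. Both pools numbered 2 were above both pools numbered 1, with a log2 fold change of 1.63 (standard error 0.36; adjusted p = 0.0549 by edgeR's quasi-likelihood test). Fcgr2b, the inhibitory IgG receptor, shares 10.2% of the 50-base stretches of Fcgr3 and had a log2 fold change of -0.12 (standard error 0.23; named after its value was seen). Fcgr1 was low, with 8.70, 10.4, 6.09 and 19.6 normalized CPM in the same order, from 21 to 51 counts. Its highest value was in male pool 2, and the log2 fold change of 1.07 (standard error 0.40) did not pass (adjusted p = 0.149). Without that pool it was 0.52 for Fcgr1, and 1.32 for Fcgr3.

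Cd14 and Mertk differed least. Cd14 had 123 and 133 normalized CPM in female pools 1 and 2, and 99.5 and 137 in male pools 1 and 2, a highest-to-lowest fold of 1.38. Its log2 fold change was 0.28 (standard error 0.24; adjusted p = 0.521 by edgeR's quasi-likelihood test), and it was -0.0237 without composition normalization. Mertk had 14, 7, 18 and 8 counts in the same pools, or 3.81, 3.46, 2.15 and 3.08 normalized CPM. The 95% intervals of these values (exact Poisson, counting error only) ran from 2.08 to 6.39 in female pool 1 and from 1.27 to 3.40 in male pool 1, and those of all 4 pools overlapped, so differences as small as these were not resolved at this depth. Over the 10 genes the median log2 fold change of pool 2 over pool 1 was 1.29, against -0.03 over all genes tested. At an unadjusted p under 0.05, 8 of the 10 were higher in pool 2, all but Cd14 and Mertk, against 14.4% of all genes. Both pools numbered 2 lay above both pools numbered 1 for 9 of the 10, against 26.5% of all genes. Without composition normalization this held for 8 of the 10, against 15.8% of all genes.

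**Figure D2:**
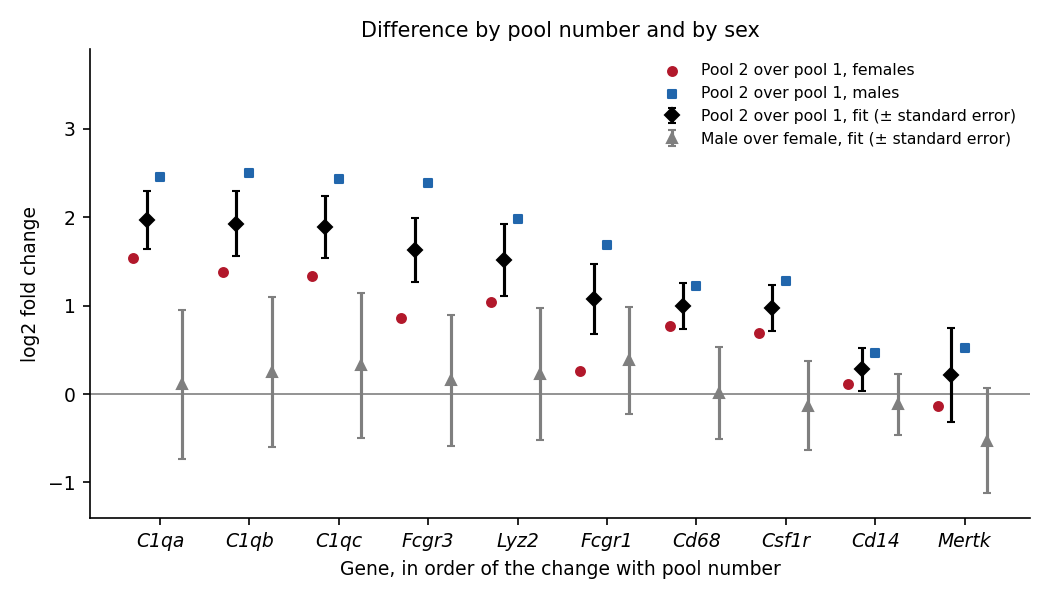
Log2 fold change of each gene for pool 2 over pool 1 (black diamonds, fit with its standard error; circles, females; squares, males) and for male over female (grey triangles, fit with its standard error). The change with pool number falls from 1.97 for C1qa to 0.22 for Mertk and is larger in males for every gene, whereas each bar of the male over female change reaches or crosses 0 within its standard error.

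The 3 C1q transcripts kept the same shares of their sum while the sum itself changed. Summed over the 3 genes, the level was 708 and 1872 normalized CPM in female pools 1 and 2, and 466 and 2581 in male pools 1 and 2. Per kilobase of exon, C1qb made up 53.1% to 54.5% of the C1q level in a pool, C1qa 26.8% to 29.7% and C1qc 17.2% to 19.2%. With the longest protein-coding transcripts as lengths, chosen after the values were seen, the ranges were 48.0% to 49.0%, 24.1% to 26.9% and 25.01% to 27.6%. The ratio of C1q to the other 7 genes varied more. For each count of Cd14 there were 5.75 and 14.1 counts of C1q in female pools 1 and 2, and 4.68 and 18.8 in male pools 1 and 2. The ratio was on average 3.14-fold higher in pools numbered 2, with no overlap. The same ratio was 3.35-fold higher against Mertk (7 to 18 counts), 1.95-fold against Fcgr1, 1.93-fold against Csf1r, 1.92-fold against Cd68 and 1.34-fold against Lyz2, also with no overlap. The average difference by pool number was smallest against Fcgr3, at 1.24-fold. That ratio was 36.7 and 53.3 in female pools 1 and 2, and 47.0 and 49.7 in male pools 1 and 2. Each of these 7 ratios gave p = 0.333 by an exact permutation test (two-sided), the smallest p that 2 pools against 2 allow, so none can pass 0.05.

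**Figure D3:**
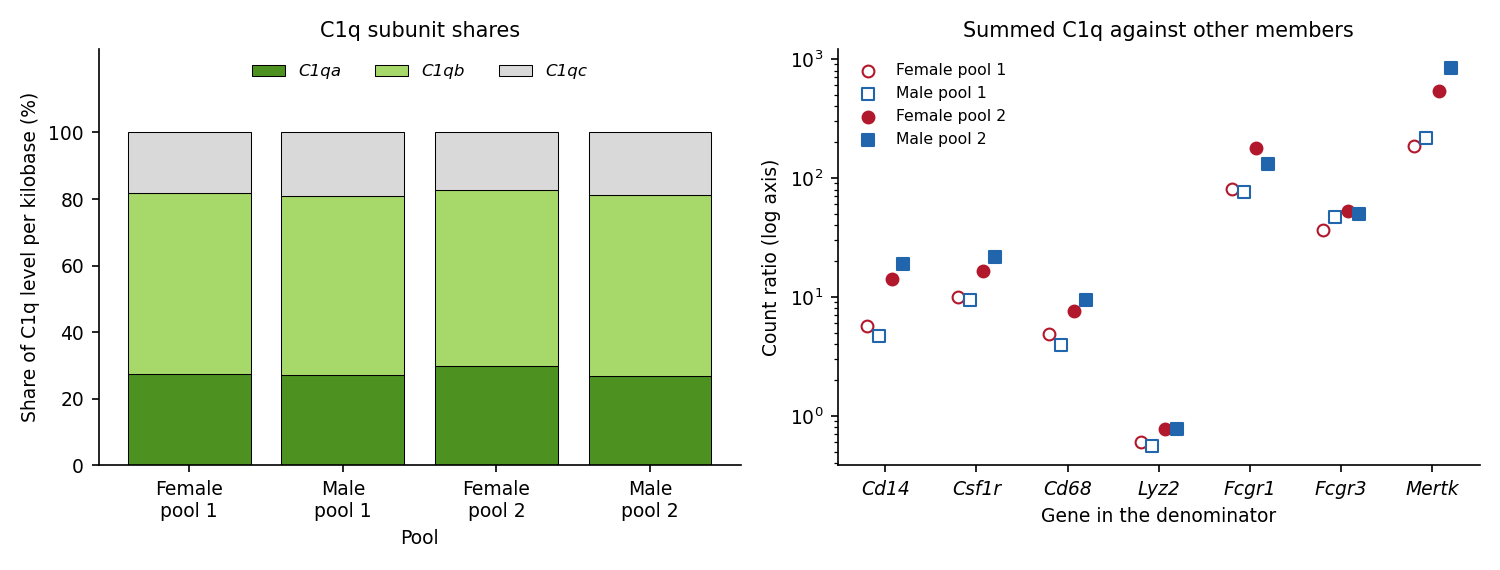
Left, share of each C1q gene in the summed C1q level per kilobase of exon (%) in the 4 pools. Right, summed C1q counts per count of Cd14, Csf1r, Cd68, Lyz2, Fcgr1, Fcgr3 or Mertk (log axis), with open symbols for pools numbered 1 and filled symbols for pools numbered 2; C1qb takes 53.1% to 54.5% in every pool, while the ratio to Cd14 runs from 4.68 to 18.8.

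Over the 4 pools, the genes whose profile was nearest to that of C1q, by root mean square distance of centred log2 values, were Pdgfa (0.0519), Scand1 (0.116), Selm (0.130), Fam26f (0.132) and Bloc1s1 (0.145). They were found among 7849 genes with a mean of at least 10 normalized CPM. Pdgfa, which encodes a growth factor chain, had 9.24 and 23.8 normalized CPM in female pools 1 and 2, and 6.09 and 30.8 in male pools 1 and 2. Of the other members with such a mean, Fcgr3 (0.206) and Lyz2 (0.217) were nearest to C1q and Cd14 (0.845) was farthest. Mertk, with a mean of 3.13 normalized CPM, was not compared. With 4 pools this likeness is a description only.

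Other genes of the same pathways were taken from fixed lists. Neither comparison called any of 8 tested genes of a list headed Fc receptor partners. The heading does not show that each gene, Tyrobp among them, acts with Fcgr1 or Fcgr3. The most abundant were the signalling adaptors Tyrobp, with 1153 ± 1026 normalized CPM (SD, n = 4 pools), and Fcer1g, with 546 ± 411. The log2 fold change of pool 2 over pool 1 was 1.96 (standard error 0.48) for Tyrobp and 1.498 (standard error 0.46) for Fcer1g, and neither passed (adjusted p = 0.0634 and 0.102 by edgeR's quasi-likelihood test). Of 8 tested genes of the CSF1 axis and myeloid transcription factors 0 were called. Irf8 and Sfpi1, which encodes PU.1, were the most abundant, at 537 ± 213 and 352 ± 95.5 normalized CPM. The ligands of Csf1r, named after their values were seen, were low: Csf1 had 7.80 ± 1.96 normalized CPM, and Il34 had 0 to 4 counts in a pool.

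In the complement list, 2 of 9 tested genes were called higher in pool 2, against 1.86% of all genes. They were C3, the central component of the cascade, with a log2 fold change of 1.82 (adjusted p = 0.0391 by edgeR's quasi-likelihood test), and Cfb, factor B of the alternative pathway, with 1.36 (adjusted p = 0.0493). The C1q-bound proteases were scarce: C1ra and C1s, named after their values were seen, had means of 1.48 and 2.03 normalized CPM. Calr, which encodes a chaperone that also binds C1q, and Cfp, which encodes properdin, were the most abundant at 918 ± 157 and 198 ± 30.4, and neither passed. Among 11 tested genes for the uptake of dead cells, 1 was called. It was Abca1, a lipid exporter, which was lower in pool 2 (log2 fold change -1.20, adjusted p = 0.0451 by the same test), as were 0.175% of all genes. Axl, the relative of Mertk that was the most abundant of this list, had 114 ± 32.1 normalized CPM, and the engulfment gene Elmo1 had 75.2 ± 14.5. Megf10, an engulfment receptor gene named after its counts were seen, had 0 counts in every pool.

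LPS receptor signalling gave 0 calls among 13 tested genes, Cd14 not counted. Il1b, a cytokine gene that LPS induces, had 1409 ± 358 normalized CPM and Ly86 had 392 ± 83.7. Tlr4, the signalling receptor for LPS, had a mean of 1.799 (named after its value was seen). For lysosomal genes, 1 of 16 was called higher in pool 2, against 1.86% of all genes. This was Lyz1 (log2 fold change 1.74, adjusted p = 0.0443 by edgeR's quasi-likelihood test), which is uncertain for the reads it shares with Lyz2. Psap and Ctss, the most abundant of that list, had 2068 ± 157 and 1165 ± 331 normalized CPM, and neither passed. None of the genes in these 6 lists was called between the sexes.

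A list of 22 other macrophage and monocyte markers, 20 of them tested, had 4 genes higher in pool 2 and 0 lower, against the shares of 1.86% and 0.175% of all genes given above. The 4 were Aif1, Ms4a7, Trem2 and Hmox1, the last 3 named after their values were seen, with log2 fold changes of 2.42, 1.95, 2.43 and 1.29 (adjusted p = 0.0486 for the first 3 and 0.045 for Hmox1 by edgeR's quasi-likelihood test). Aif1, which encodes an actin-binding protein of macrophages, had 238 and 584 normalized CPM in female pools 1 and 2, and 192 and 1717 in male pools 1 and 2. Lgals3 was the most abundant of the list, at 795 ± 337 (SD, n = 4 pools). The median log2 fold change of the 20 was 0.93. Both pools numbered 2 lay above both pools numbered 1 for 9 of them, against 26.5% of all genes, and below for 2, against 29%. The 2 below were Itgam (log2 fold change -0.89) and Cybb (-0.47), named after their values were seen, and neither passed. Of the 22 genes, 10 had a mean under 10 normalized CPM and 6 a mean over 100. Emr1, which encodes the macrophage protein F4/80 and was named after its values were seen, had 19.0 and 18.3 normalized CPM in female pools 1 and 2, and 19.1 and 53.9 in male pools 1 and 2.

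Markers of other cell types moved between the same pools, and their part in these results was not tested. The summed level of 8 B cell genes was 3795 and 4585 normalized CPM in pools numbered 1 and 2574 and 3095 in pools numbered 2, with all 7 tested genes lower in both pools numbered 2, as were 29% of all genes tested. Cd79a and Cd79b, chains of the B cell receptor complex, led that list. The 11 epithelial genes summed to 396 and 440 in pools numbered 1 and to 686 and 650 in pools numbered 2, led by Spint2 and Krt8, and Foxn1, which specifies thymic epithelium, had a mean of 2.70 (named after its value was seen). Without Spint2, the epithelial sums, added after the values were seen, were 155 and 214 against 338 and 344. Of the 11 genes, 4 had a mean under 10 normalized CPM and 1 a mean over 100. The 9 genes of conventional dendritic cells, led by Ccr7 and Flt3, summed to 2860 and 3389 in pools numbered 1 and to 2281 and 2633 in pools numbered 2. Without Ccr7, a sum added after the values were seen, they were 926 and 1078 against 934 and 1150, which overlap. At an unadjusted p under 0.05, 4 of these 9 genes were higher in pool 2, against 14.4% of all genes, and 1 was lower. Of the 4, Batf3 alone passed the adjusted threshold (log2 fold change 2.24, adjusted p = 0.0391 by edgeR's quasi-likelihood test), against 1.86% of all genes. The other 3 were Itgax (0.80), Xcr1 (0.73) and Clec9a (1.004), and the lower one was Cd24a (-0.795), all named, like Batf3, after their values were seen. Markers of plasmacytoid dendritic cells (Ly6d and Irf7 leading) summed to 2709 to 3850 over the 4 pools. Neutrophil genes, led by Cxcr2 and S100a9, summed to 121 in each female pool and to 280 and 431 in the male pools. T cell genes, with Lck and Cd8a leading, ran from 333 in female pool 2 to 1035 in male pool 1, and fibroblast genes, with Dcn and Col3a1 leading, from 12.2 in female pool 1 to 78.5 in male pool 2. Ptprc, which encodes CD45, had 280 and 180 normalized CPM in female pools 1 and 2. In male pools 1 and 2 it had 304 and 219. Both pools numbered 2 were below both pools numbered 1, as for 29% of all genes tested. Of the genes of these cell type lists found in the table, 0 were without a count in every pool.

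**Figure D4:**
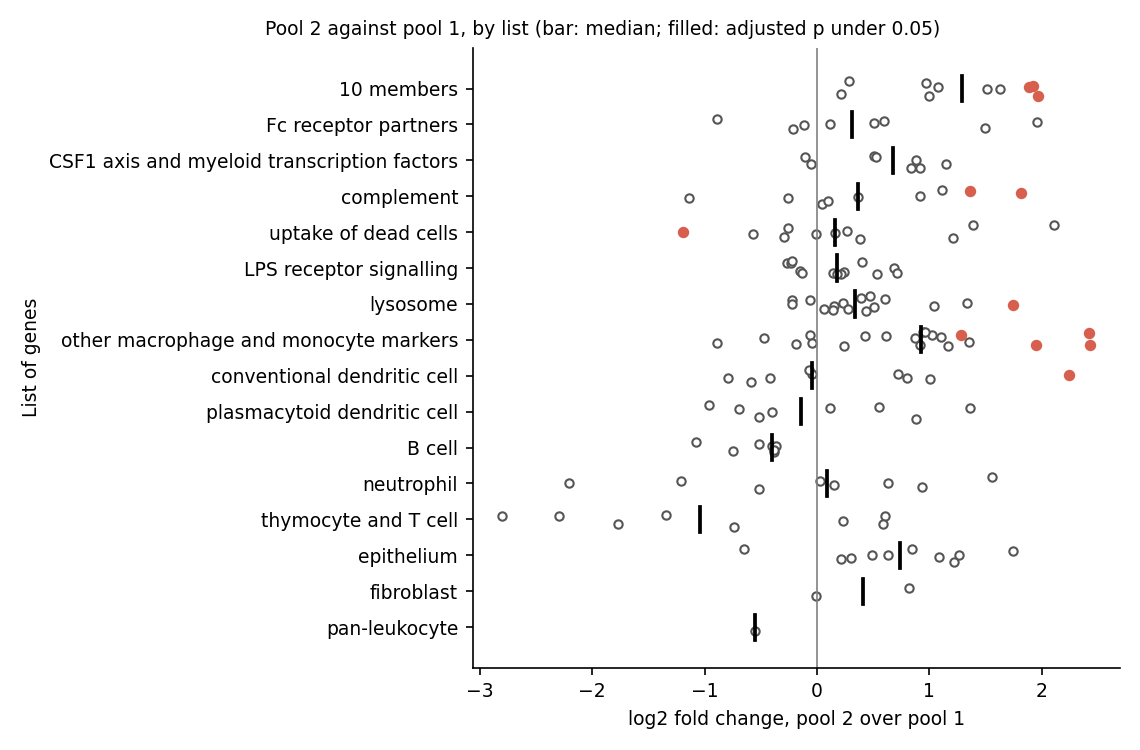
Log2 fold change of pool 2 over pool 1 (horizontal axis) for each tested gene of the 10 genes and of 15 other lists, with a bar at each list's median and filled points for an adjusted p under 0.05. The 10 genes have a median of 1.29, above the medians of the other lists, and the 3 filled points among them are the C1q genes.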

How the data were processed

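RNA was sequenced from sorted mTECs in 4 pools (2 female, 2 male) after library preparation with the SMARTer Ultra Low kit v3. HTSeq-count was the counting tool of the authors, run on TopHat2 alignments to mm9 of reads filtered by Trimmomatic. Versions, annotation and strand setting are not given in the sources used here. The deposited values are raw read counts for 23366 genes. A further 5 rows of unassigned reads, 66.9% to 70.2% of all reads in the table, were left out. No pair of pools agreed within sampling noise (chi-square per degree of freedom of 11.0 or more).

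The rest was computed with edgeR 4.0.16, DESeq2 1.42.0, R 4.3.3, Python 3.11.15, pandas 2.3.3 and matplotlib 3.10.9. The quasi-likelihood test was fitted with sex or with pool number as the only term, with TMM, filterByExpr (minimum count 10), a prior count of 0.125 and Benjamini-Hochberg adjustment at 0.05, two-sided. Standard errors are the log2 fold change over the square root of F. Exonic lengths and positions are from GENCODE vM1 on NCBIM37, with RefSeq synonyms for older symbols, which placed 173 of 174 list genes in the table. Genes named are the 10, the 2 most abundant of each list, called genes of pathway lists, marker genes at 0 in every pool and the 5 nearest to C1q; any other gene is given as named after its values were seen. The genes, the lists and the comparison by pool number were chosen with earlier results of these data known.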

Additional observations from a re-analysis of the deposited data

Results flagged for a closer look

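For 9 of the 10 genes, the male pool was below the female pool among pools numbered 1 and above it among pools numbered 2, as for 27.1% of all genes tested. With 1 difference per pool number, the opposite directions were not tested. The log2 differences of male minus female in pools numbered 1 and 2 were -0.47 and 0.47 for Lyz2, -0.29 and 0.16 for Cd68, and -0.52 and 0.0733 for Csf1r. They were -0.62 and 0.30 for C1qa, -0.63 and 0.49 for C1qb, and -0.54 and 0.57 for C1qc. For Fcgr1 they were -0.51 and 0.92, for Fcgr3 -0.96 and 0.57, and for Cd14 -0.31 and 0.0423. Without composition normalization 5 of the 10 genes showed opposite directions in this way, against 10.8% of all genes.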

How the results depend on the processing

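Between the sexes, 0 of the 10 genes passed an adjusted p of 0.05 in the fit reported and in all 12 alternatives. Over all genes the count was 0, and became 5 under library size only, 26 without a filter, 3 with DESeq2, 8 with edgeR's exact test and 17 with the replicate block, and it ran from 0 to 646 with a replicate left out (646 without male pool 1, 70 without male pool 2). The direction was not fixed, except for Mertk. Its log2 fold change was below 0 in all 12 alternatives, and ran from -0.75 to -0.26 with a replicate left out. With library size only the log2 fold change was -0.0369 for Lyz2, -0.19 for Cd68, -0.18 for C1qa, -0.0475 for C1qb and -0.12 for Fcgr3. With the replicate block it was -0.0625 for Cd68, -0.16 for C1qa, -0.0737 for C1qb and -0.18 for Fcgr3, and with over 1 CPM in at least 2 pools it was -0.0042 for Cd68. With a replicate left out it ran from -1.07 to 0.89 for Lyz2, -0.71 to 0.49 for Cd68, -0.89 to 0.37 for Csf1r, -1.57 to 1.10 for C1qa, -1.47 to 1.13 for C1qb, -1.34 to 1.17 for C1qc, -0.62 to 1.04 for Fcgr1, -1.42 to 0.95 for Fcgr3 and -0.36 to 0.0868 for Cd14. What pools of the same number share is not known. Over 10865 genes, the deviations of female pool 2 and male pool 2 from the means of their sexes correlated at 0.52. With 2 pools per sex, the deviations of pools numbered 1 mirror these and add no further pair.

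Between pool numbers, 3 of the 10 genes and 221 genes in all were called in the fit reported. The counts were 121 genes with DESeq2's size factors in edgeR, where 2 of the 10 passed (C1qb did not), 5 of the 10 and 764 genes (376 higher and 388 lower, against 202 and 19 in the fit reported) with library size only, 7 and 1504 with no filter, 6 and 651 with DESeq2, 7 and 1138 with edgeR's exact test, and 5 (the C1q genes, Fcgr3 and Csf1r) and 807 with sex as a second term. They ran from 0 to 8 of the 10 and from 174 to 2620 genes with a replicate left out. Library size only moved the median of all genes from -0.03 to -0.35 and gave -0.13 for Mertk and -0.0237 for Cd14. Mertk ran from -0.23 to 0.58 with a replicate left out. No other of the 10 genes changed direction between pool numbers. The adjusted p over the 12 alternatives ran from 1.76e-06 to 0.26 for C1qa, from 6.86e-06 to 0.38 for C1qb and from 9.75e-06 to 0.305 for C1qc. It was past the threshold in 11 of them for C1qa, 9 for C1qb, 10 for C1qc, 7 for Fcgr3 (1.38e-05 to 0.249), 6 for Lyz2, 5 for Cd68, 4 for Csf1r and 1 for Fcgr1. The cause of these differences was not tested.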
